A study of Mus musculus with 7 samples.

Results

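The nuclear receptors that sense drugs, lipids and bile acids in the liver were examined together with their shared partner, a coactivator and the aryl hydrocarbon receptor in mouse precision-cut liver slices (PCLS). The 10 genes were picked by name, as Ppara, Ppard, Nr1i2, Nr1i3, Nr1h3, Nr1h4, Nr0b2, Rxra, Ppargc1a and Ahr, and each had a row among the 55487 genes of the deposited count table. Slices were cut from livers of healthy male Balb/c mice and kept for 3 days in Williams' medium E with glutamine and antibiotics, which was common to all libraries. The 3 CTR libraries came from slices without valproic acid sodium salt (VPA), a histone deacetylase inhibitor, and the 4 VPA libraries from slices cut and kept in 2.5 mM VPA. No genotype was altered, slices hold all cell types of the lobule beside a cut surface, and the methods of the study count each liver as a separate biological repeat.

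Nuclear receptors are transcription factors that a small lipid-soluble ligand switches on. PPARα (Ppara) and PPARδ (Ppard) bind fatty acids, LXRα (Nr1h3) oxysterols, FXR (Nr1h4) bile acids, and PXR (Nr1i2) and CAR (Nr1i3) drugs and other foreign compounds. All of these pair with RXRα (Rxra) on DNA. SHP (Nr0b2) lacks a DNA-binding domain, is induced by FXR and restrains other receptors, whereas PGC1α (Ppargc1a) is a coactivator that supports fatty acid oxidation and gluconeogenesis during fasting. AHR (Ahr) is a ligand-activated factor of another family that induces Cyp1 enzymes.

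Among the members, Ppargc1a stood higher in every VPA library than in any CTR library, and the edgeR estimate for the groups was 3.41-fold. Rxra was lower in every VPA library than in any CTR library, and its edgeR estimate for the groups was 17.9% lower, a log2 fold change of −0.29. Nr0b2 had counts in all 3 CTR libraries and was listed at 0 in 3 of the 4 VPA libraries. None of the 8 members with enough counts to be tested had an adjusted p under 0.05 in edgeR, where 0.00919% of the 10876 genes tested did. At an unadjusted p under 0.05, 1 of the 8 members was higher (3.65% of all genes tested) and 0 were lower (4.62% of all genes tested). By ranges alone, 1 of the 8 was higher without overlap (4.44% of all genes tested) and 1 was lower without overlap (7.41% of all genes tested). Nr0b2, which had too few counts to be tested, was the other member lower without overlap. Its highest VPA library had 3.21 CPM from 4 counts, against 3.35 CPM in its lowest CTR library. DESeq2 did not call any of the 9 members that it tested at an adjusted p under 0.05, where it called 1.01% of all genes with an adjusted p, and at an unadjusted p under 0.05 it had 1 of the 9 higher, Ppargc1a (1.86% of all genes), and 0 lower (2.69% of all genes).

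**Figure D1:**
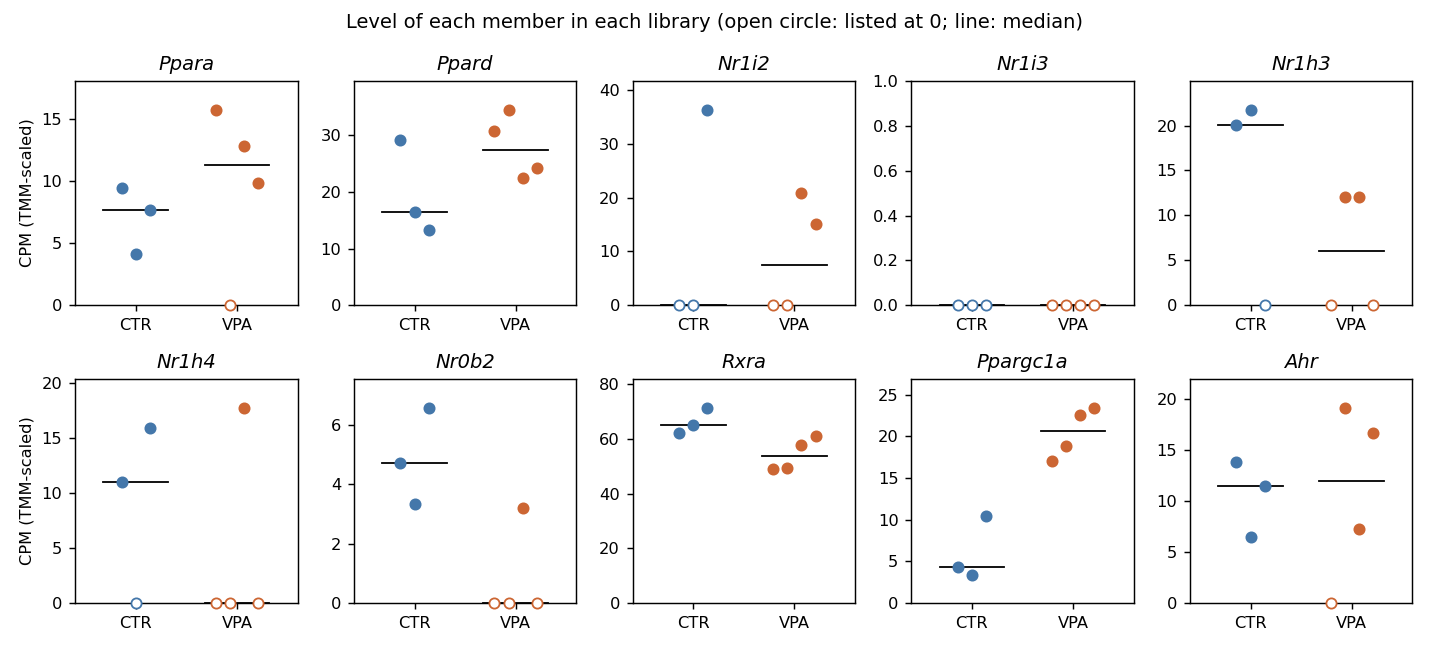
Level of each member as TMM-scaled counts per 1000000 counts (CPM, y axis, separate scale per gene) in the 3 CTR and 4 VPA libraries, with a line at each group's median and open circles for libraries listed at 0. Ppargc1a lies at 17.0 CPM or more in all VPA libraries and at 10.4 CPM or less in all CTR libraries, and Nr1i3 is at 0 throughout.

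Library totals ranged from 1400887 to 4773750 counts. A member without a count could still have had up to 3, or 0.591 to 2.41 CPM depending on the library, a limit that covers counting error only. Exact zeros in this table need care, because genes that every cell uses were also at 0 in single libraries. Polr2e, a subunit of RNA polymerases, had 161 to 785 counts in 6 libraries and 0 in VPA replicate 1. Snrpd3, a splicing protein, had 324 to 1705 counts in 5 libraries and 0 in VPA replicates 1 and 2, and both genes were chosen after their values were seen. Of the genes tested, 18.3% were at 0 in a library where their level in the other libraries with a count made at least 20 counts due, as were 4 of the 8 members tested (Ppara, Nr1i2, Nr1h3 and Nr1h4). Per library this held for 1.66% to 3.22% of such genes in CTR and 4.93% to 10.7% in VPA. A member at 0 is therefore given as listed at 0, and the part of counting or processing in these zeros was not tested. With zeros left out, 7 of 9 members did not overlap between groups (16.4% of all genes tested, which do not include Nr0b2), but this left Nr1i2 with 1 CTR library and Nr1h4 and Nr0b2 with 1 VPA library each, where few orders are possible.

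**Figure D2:**
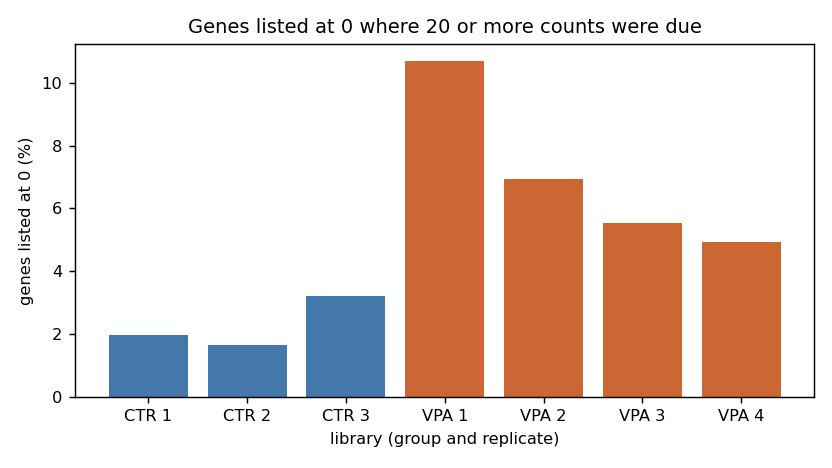
Share of genes listed at 0 in a library (y axis, percent) among the tested genes for which at least 20 counts were due there from the mean CPM of the other libraries with a count, by library (x axis). The CTR bars lie between 1.66% and 3.22% and the VPA bars between 4.93% and 10.7%.

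Ppargc1a (ENSMUSG00000029167) lies on the minus strand of chromosome 5 of GRCm38 from 51454250 to 51567726. The promoter is printed because Ppargc1a had the smallest p of the members tested, and that of Nr0b2 because it was counted in all CTR libraries and listed at 0 in 3 of 4 VPA libraries. Both are RefSeq promoters on GRCm38.p6, from 250 bases before to 50 bases after the start, which RefSeq's table gave for 9 of the 10 members. In Ppargc1a (chr5:51567676-51567975, minus strand) capitals mark the core of a cAMP response element, TGACG read on the other strand as CGTCA, 49 to 45 bases before the start, a motif to which CREB family factors bind. In Nr0b2 (chr4:133553126-133553425, plus strand) capitals mark TCAAGG, the core to which LRH-1 (Nr5a2) binds, which begins 68 and 35 bases before the start.
Ppargc1a: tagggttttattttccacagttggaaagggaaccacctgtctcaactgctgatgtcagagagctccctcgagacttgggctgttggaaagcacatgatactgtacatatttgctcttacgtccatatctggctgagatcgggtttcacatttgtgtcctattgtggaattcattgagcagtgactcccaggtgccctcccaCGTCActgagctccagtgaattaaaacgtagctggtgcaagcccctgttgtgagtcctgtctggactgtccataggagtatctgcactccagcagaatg
Nr0b2: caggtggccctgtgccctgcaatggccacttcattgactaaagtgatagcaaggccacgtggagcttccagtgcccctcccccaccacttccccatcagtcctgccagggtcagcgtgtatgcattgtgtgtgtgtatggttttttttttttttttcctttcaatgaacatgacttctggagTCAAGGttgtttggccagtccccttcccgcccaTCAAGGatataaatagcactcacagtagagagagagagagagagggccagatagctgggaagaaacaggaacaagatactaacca
Both strands were searched, and each motif was chosen after the sequences were seen. TGACG was found in 20.8% of the 32851 promoters of the table, TCAAGG in 14.4%, and more than 1 TCAAGG in 1.32%, so a match is a description and not a site.

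Ppargc1a had 4.33, 3.35 and 10.4 CPM in CTR replicates 1 to 3, from 11, 17 and 19 counts. In VPA replicates 1 to 4 it had 17.0, 18.8, 22.5 and 23.4 CPM, from 26, 61, 28 and 31 counts. All VPA libraries lay above all CTR libraries, and CTR replicate 3 was the highest of its group. The means were 6.03 ± 3.83 CPM (SD, n = 3) and 20.4 ± 3.05 CPM (SD, n = 4), and exact permutation of the libraries, two-sided, gave p = 0.0286, which is the least that 35 splits can give and was not adjusted for the other members. The log2 fold change was 1.77 with a 95% interval from 0.50 to 3.04, that is 1.41-fold to 8.23-fold. Its unadjusted p was 0.0127 and its adjusted p over all genes tested was 0.447 in edgeR's quasi-likelihood test, so it did not hold up against the correction. The adjusted p was 0.136 with DESeq2 and between 0.0704 and 1 over the 17 alternatives, in each of which Ppargc1a was higher and had an unadjusted p under 0.05. Transcript models of uncertain status lie inside the gene. On the same strand, Gm42614 had 55 counts over all libraries, 30 of them in VPA replicate 2, and Gm43605 had 46, of which 25 were in CTR replicate 2. Gm42615 on the same strand had 6 counts and Gm42613 on the other strand had 9, all in VPA libraries. The split of reads between these models and Ppargc1a is therefore uncertain.

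Rxra (ENSMUSG00000015846), on the plus strand of chromosome 2 from 27676440 to 27762957, was the member with the most counts, 1007 over all libraries. Its edgeR interval was the narrowest of the members tested. It had 62.3, 65.0 and 71.3 CPM in CTR replicates 1 to 3 and 49.0, 49.5, 57.8 and 61.2 CPM in VPA replicates 1 to 4. The groups did not overlap, although VPA replicate 4 lay just below CTR replicate 1. The means were 66.2 ± 4.61 CPM (SD, n = 3) and 54.4 ± 6.08 CPM (SD, n = 4), and the exact permutation test gave p = 0.0571 (two-sided). The log2 fold change was −0.29 with a 95% interval from −0.69 to 0.12 and an adjusted p of 0.760 in edgeR's test, so the data allow anything from 0.621-fold to 1.08-fold.

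The labels also carry a slice culture number, of which 71, 72 and 74 occur in both groups, and they do not say what it marks. Within numbers 71, 72 and 74, the VPA library had 2.16, 5.40 and 5.60 times the CPM of the CTR library for Ppargc1a. For Rxra these ratios were 0.811, 0.983 and 0.761. Because the groups of both genes did not overlap, any pairing of their libraries gives these directions, which therefore add nothing to the comparison of groups. For Ppargc1a numbers 72 and 74 stood close together, and for Rxra number 72 was near equality.

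**Figure D3:**
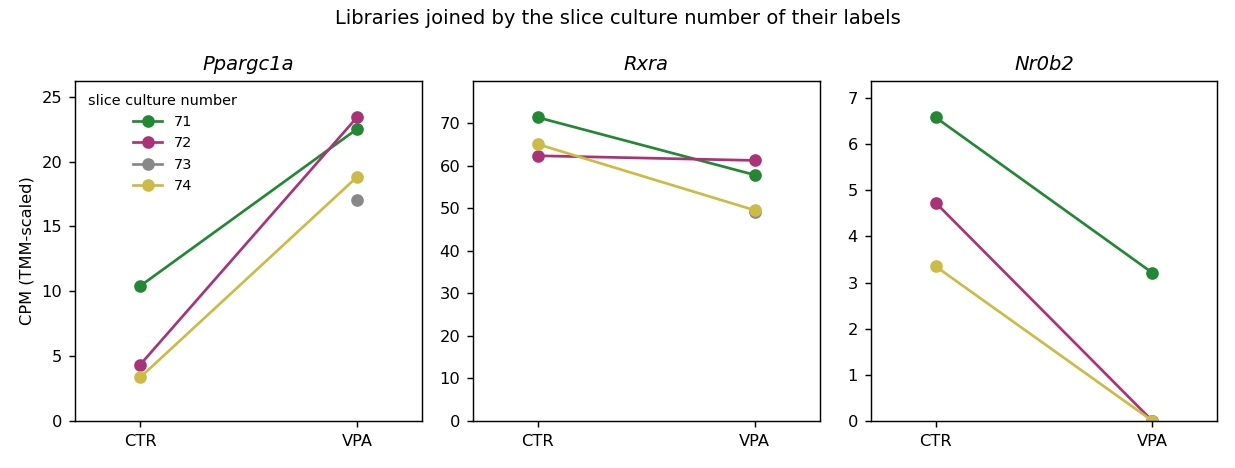
CPM of Ppargc1a, Rxra and Nr0b2 (y axis, separate scale per gene) in CTR and VPA libraries, joined by a line where they share a slice culture number; number 73 occurs in VPA alone, and for Nr0b2 the VPA points of 72, 73 and 74 coincide at 0. For Ppargc1a the VPA end of each line is at 2.16 to 5.60 times its CTR end, and the Rxra line of number 72 is nearly flat at a ratio of 0.983.

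The lipid sensors were counted less deeply. Ppard (ENSMUSG00000002250; chromosome 17, 28232700 to 28301474, plus strand), a widely expressed fatty acid receptor, had 29.2, 16.4 and 13.2 CPM in CTR and 30.7, 34.4, 22.5 and 24.2 CPM in VPA replicates. Only CTR replicate 1 reached into the VPA range, and without it the groups did not overlap. The log2 fold change was 0.52 (95% interval −0.35 to 1.39, adjusted p = 0.843 in edgeR), with an exact permutation p of 0.143, so a difference was not detectable. Ppara (ENSMUSG00000022383; chromosome 15, 85734983 to 85802819, plus strand), the main driver of fatty acid oxidation genes in hepatocytes, had 9.46, 4.14 and 7.68 CPM in CTR. In VPA replicates 1, 3 and 4 it had 15.7, 12.8 and 9.82 CPM, each above the highest CTR library, and it was listed at 0 in VPA replicate 2, where 32.3 counts were due. Its log2 fold change of 0.42 (95% interval −2.47 to 3.32, adjusted p = 0.968 in edgeR) became 0.86 without that library, and in limma-voom it was 1.29 (95% interval −0.82 to 3.40) with zeros left out and −1.91 with zeros kept.

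Nr1h3 (ENSMUSG00000002108; chromosome 2, 91184061 to 91202834, minus strand), the oxysterol receptor of hepatocytes and macrophages, had 20.1 and 21.7 CPM in CTR replicates 1 and 2 and 12 CPM in VPA replicates 2 and 3. It was listed at 0 in CTR replicate 3 and in VPA replicates 1 and 4, where between 21.8 and 30.0 counts were due. Among libraries with a count, both VPA values thus lay below both CTR values. The log2 fold change was −1.20 with a 95% interval from −5.18 to 2.79 (adjusted p = 0.945 in edgeR), and −0.81 with the zeros left out (−3.66 to 2.04).

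**Figure D4:**
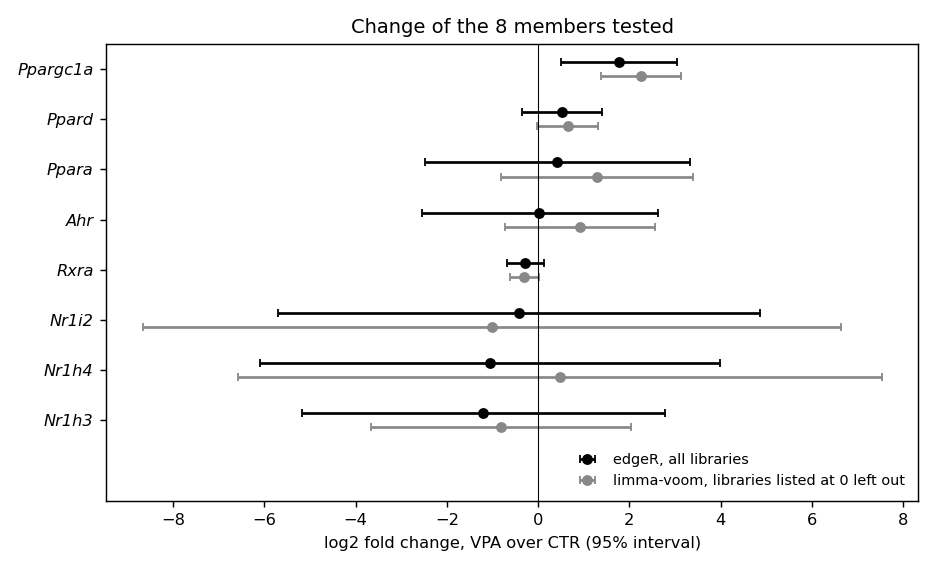
Log2 fold change of VPA over CTR (x axis) with its 95% interval for the 8 members tested, from edgeR on all libraries (black) and from limma-voom with libraries listed at 0 left out gene by gene (grey). The Ppargc1a intervals, 0.50 to 3.04 in edgeR, lie above 0, whereas those of the other 7 members include 0.

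The drug sensors could be followed only in part. Nr1i2 (ENSMUSG00000022809; chromosome 16, 38248323 to 38294824, minus strand), encoding PXR, had 36.2 CPM in CTR replicate 3 and 20.9 and 15.1 CPM in VPA replicates 3 and 4, and it was listed at 0 in the other 4 libraries. Between 36.8 and 122 counts were due in those 4 libraries, of which 2 were CTR and 2 VPA, so its log2 fold change of −0.43 has a 95% interval from −5.71 to 4.86 and gives no direction. Nr1i3 (ENSMUSG00000005677; chromosome 1, 171213970 to 171220701, plus strand), encoding CAR, was listed at 0 in all 7 libraries. The neighboring Tomm40l overlaps it on the minus strand from 171216011 to 171222514 and was likewise listed at 0 in all libraries, and the part of this overlap was not tested.

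Ahr (ENSMUSG00000019256; chromosome 12, 35497974 to 35535038, minus strand) had 13.8, 6.50 and 11.5 CPM in CTR and 19.1, 7.23 and 16.6 CPM in VPA replicates 2, 3 and 4. It was listed at 0 in VPA replicate 1, where 19.1 counts were due. The groups overlapped, the log2 fold change was 0.03 (95% interval −2.55 to 2.62, adjusted p = 0.999 in edgeR), and the sign turned in 6 of 16 alternatives. Gm48236 overlaps the start of Ahr on the other strand and had 11 counts, all in VPA replicate 2.

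For bile acids, Nr1h4 (ENSMUSG00000047638; chromosome 10, 89454234 to 89533585, minus strand), encoding FXR, had 11 and 15.9 CPM in CTR replicates 1 and 3 and 17.7 CPM in VPA replicate 3. It was listed at 0 in CTR replicate 2 and in VPA replicates 1, 2 and 4, where 75.4, 22.8, 48.3 and 19.7 counts were due. CTR replicate 3 and VPA replicate 3, which share slice culture number 71, thus had similar values, and the log2 fold change of −1.05 (95% interval −6.09 to 3.99) rests on the zeros. Nr0b2 (ENSMUSG00000037583; chromosome 4, 133553376 to 133556536, plus strand), encoding SHP, had 4.73, 3.35 and 6.58 CPM in CTR replicates 1 to 3, from 12, 17 and 12 counts. It had 3.21 CPM in VPA replicate 3, from 4 counts, and was listed at 0 in VPA replicates 1, 2 and 4, where 6.84, 14.5 and 5.92 counts were due. The highest VPA library thus lay just below the lowest CTR library, with exact permutation p = 0.0571. Over the groups 41 counts in CTR stood against 4 in VPA, which is 4.35 against 0.544 CPM when the libraries of a group are pooled. Within slice culture number 71 the VPA library had 0.488 times the CPM of the CTR library. DESeq2, which kept this gene, gave a log2 fold change of −2.73 (95% interval −6.41 to 0.96) and an adjusted p of 0.895.

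Genes that these receptors are known to control were taken from lists written from general knowledge, but with earlier results of these data known. They are described by counts beside the median of all genes tested, which was −0.06 on the log2 scale, and these counts are not a test of a list. Over all genes tested, 4982 of 10876 were higher. Of 28 PPAR targets, Cyp4a10, Cyp4a14 and Fgf21 were listed at 0 in all libraries. Of the 23 tested, 19 were higher and 4 lower, the median log2 fold change being 0.42, and at an unadjusted p under 0.05 there were 6 higher and 0 lower, where 3.65% and 4.62% of all genes tested were higher and lower. Creb3l3, a liver transcription factor of lipid metabolism, had 78.8 to 118 CPM in CTR and 520 to 689 CPM in VPA (log2 fold change 2.58, adjusted p = 0.0247 in edgeR) and was the only gene of these lists past the adjusted threshold in edgeR. Its log2 fold change was 2.40 to 2.67 over 17 alternatives, of which 9 kept the call, DESeq2 and limma-voom among them. The call was lost with both replicate blocks (adjusted p = 0.223 and 0.306 in edgeR). It was also lost in 6 of 7 fits that left out a library (adjusted p up to 0.244 in edgeR), the exception being VPA replicate 2. Pdk4, a kinase that spares glucose and is named after its value was seen, had a log2 fold change of 2.56 (95% interval 0.20 to 4.93) but was listed at 0 in CTR replicate 3. Cpt1a, which brings fatty acids into mitochondria for oxidation, had 0.74 and did not overlap between groups. Acot2, an acyl-CoA thioesterase, had 1.27, and Pex11a, which divides peroxisomes, had 0.78. Plin2, the lipid droplet coat and the most abundant gene of the list, had 0.15, so the list was not uniform.

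Of 11 genes coactivated by PGC1α that were tested, a list that holds Ppara, 8 were higher and 3 lower (median 0.42), of which 2 were higher at an unadjusted p under 0.05 (3.65% of all genes tested). These were Cs, citrate synthase, with 44.9 to 46.6 CPM in CTR and 47.6 to 89.5 CPM in VPA (log2 fold change 0.63), and Lpin1, a phosphatidate phosphatase, with 0.98. Cycs, encoding cytochrome c, had 0.06, and Sod2, the mitochondrial superoxide dismutase, had 0.33, both within the spread between libraries. Neither Cs nor Lpin1 held up against the correction (adjusted p = 0.553 and 0.466 in edgeR).

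Of 12 PXR and CAR targets tested, 8 were higher and 4 lower (median 0.48), and 3 were higher at an unadjusted p under 0.05 (3.65% of all genes tested). Sult1d1, a sulfotransferase, had 6.70 to 18.1 CPM in CTR and 20.4 to 51.6 CPM in VPA (log2 fold change 1.38, adjusted p = 0.514 in edgeR). Alas1, the first enzyme of heme synthesis, had 0.68, and Por, which passes electrons to cytochrome P450 enzymes, had 0.50, each with an adjusted p of 0.571 in edgeR. Abcc2, a bile canalicular pump, had 0.24. The largest differences of the list were in the other direction and did not pass the test, namely Abcc3, a basolateral export pump, with −2.85 (95% interval −6.76 to 1.06, listed at 0 in 3 VPA libraries) and Gsta1, a glutathione transferase, with −2.20 (−4.49 to 0.08, listed at 0 in VPA replicate 4, groups overlapping), both named after their values were seen. Cyp2b10, Cyp2b9, Cyp2c55 and Ugt1a1 were listed at 0 in all libraries.

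Of 12 LXR targets tested, a list that holds Nr1h3, 3 were higher and 9 lower (median −0.19). Fasn, fatty acid synthase, was at 50.1 to 70.7 CPM in CTR and 13.6 to 37.0 CPM in VPA without overlap (log2 fold change −1.57, 95% interval −2.45 to −0.69). Its adjusted p was 0.310 in edgeR and 0.0425 in DESeq2. Apoe and Lpl, a lipoprotein ligand and a lipase, had −0.06 and −0.30. Abcg5 and Pltp were listed at 0 in all libraries, as was Aldh3a1 among the AHR targets. Of 5 AHR targets tested, 2 were higher and 3 lower (median −0.24). At an unadjusted p under 0.05, 0 were higher and 1 lower (3.65% and 4.62% of all genes tested). This was Nfe2l2, encoding the antioxidant factor NRF2, which had −1.10 with overlapping groups (unadjusted p = 0.0222 and adjusted p = 0.514 in edgeR). Cyp1a2, which metabolizes caffeine and other aromatic compounds, had 25.2 to 121 CPM in CTR and 8.31 to 156 CPM in VPA.

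For bile acids only 4 of 12 FXR-induced genes could be tested, with 1 higher and 3 lower and a median of −0.66. Apoc2, an activator of lipoprotein lipase, ranged from 23.5 to 777 CPM in CTR and from 0 to 356 CPM in VPA, and Abcb4, the canalicular phospholipid transporter, from 46.1 to 297 CPM and from 41.8 to 157 CPM. Abcb11, Slc51a, Slc51b and Pltp were listed at 0 in all libraries. Of 6 genes of bile acid synthesis and uptake that FXR and SHP repress, 2 were tested, namely Cyp27a1 (log2 fold change 1.04, 95% interval −0.34 to 2.42) and Slco1b2 (0.61, −1.15 to 2.36). Both intervals include 0. The other 4 genes had too few counts to be tested and are named after their values were seen. Cyp7a1, the rate-limiting enzyme of bile acid synthesis, had 11 counts in CTR replicate 2 and 0 in the other libraries. Cyp8b1, which makes cholic acid, had 0, 19 and 4 counts in CTR and 45, 30, 8 and 3 in VPA replicates. Cyp7b1, of the alternative synthesis pathway, had 7, 11 and 7 counts in CTR and was listed at 0 in all VPA libraries. Slc10a1, the main bile acid importer of hepatocytes, had 5 counts in CTR replicate 2, 6 and 7 in VPA replicates 1 and 3, and 0 elsewhere.

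**Figure D5:**
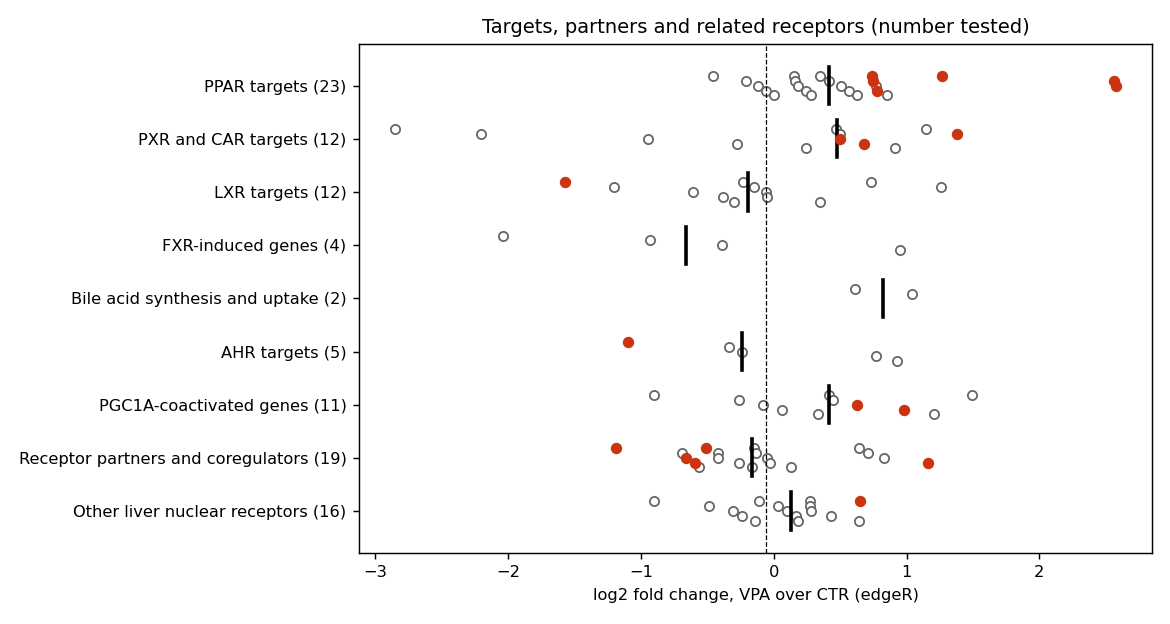
Log2 fold change of VPA over CTR (x axis) of each tested gene in 9 lists (rows, number tested in parentheses), filled where the unadjusted p was under 0.05, with a bar at each list's median and a dashed line at the median of all genes tested (−0.06). PPAR targets have a median of 0.42 with 19 of 23 genes higher, and the partners and coregulators a median of −0.16.

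Among partners and coregulators of the receptors, 5 of 19 genes tested were higher and 14 lower (median −0.16), and at an unadjusted p under 0.05 there were 1 higher and 4 lower (3.65% and 4.62% of all genes tested). Cited2, a coregulator that binds the histone acetyltransferases CBP and p300, had 238 to 382 CPM in CTR and 105 to 150 CPM in VPA (log2 fold change −1.19, 95% interval −1.67 to −0.70). Crebbp, encoding CBP itself, was at 280 to 316 CPM against 166 to 217 CPM (−0.66, −1.01 to −0.32). Ncor1, the corepressor that brings histone deacetylase 3 to unliganded receptors, was at 451 to 465 CPM against 285 to 367 CPM (−0.51, −0.81 to −0.20). These 3 genes did not overlap between groups, and their adjusted p was 0.154, 0.295 and 0.336 in edgeR and 0.000505, 0.0292 and 0.0475 in DESeq2. Hsp90ab1, the chaperone that holds AHR in the cytoplasm, had −0.59 without overlap, and Ncoa1, a coactivator that binds liganded receptors, had 1.16.

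Markers of liver cell types were read in the same libraries. The hepatocyte list of 15 genes, of which Ass1 was listed at 0 throughout and Trf and Ahsg were the most abundant, had a mean log2 CPM of 7.48 to 8.18 in CTR and 7.29 to 7.98 in VPA, and its summed level was 9478 to 23810 CPM and 6487 to 20033 CPM, so these ranges overlapped. Of its 12 genes tested, 7 were higher and 5 were lower. The hepatic stellate cell list of 12 genes, led by Dcn and Col1a1, summed to 1855 to 4144 CPM in CTR and 1391 to 2971 CPM in VPA. Of its 12 genes tested, 4 were higher and 8 lower (median log2 fold change −0.70). At an unadjusted p under 0.05, 0 were higher and 3 lower (3.65% and 4.62% of all genes tested). Its mean log2 CPM gave an exact permutation p of 0.143 (two-sided). The 9 endothelial genes, led by Kdr and Pecam1, summed to 265 to 295 CPM in CTR and to 69.2, 276, 84.3 and 177 CPM in VPA replicates 1 to 4. The 10 macrophage genes, led by Cd68 and Lyz2 and with Adgre1 and Marco at 0 throughout, summed to 294 to 424 CPM and 281 to 548 CPM, and the 6 cholangiocyte genes, led by Spp1 and Sox9, to 268 to 616 CPM and 258 to 741 CPM. Fewer cells of a type and less RNA per cell cannot be told apart in bulk libraries, and the part of cell composition in the member values was not tested.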

How the data were processed

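The authors made 3′ end libraries (QuantSeq) and, per the submitters' processing notes, used STAR, StringTie and GRCm38. They deposited raw counts per Ensembl gene without normalization, and versions, counting program and use of strand are not given in the sources used here. Groups came from the sample titles. Symbols and coordinates came from GENCODE vM21 (GRCm38), which named 55227 of 55487 genes. Because reads come from the 3′ end, CPM were not divided by length.

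Counts were tested in R 4.3.3 with edgeR 4.0.16 (TMM, filterByExpr, robust quasi-likelihood test, condition only) over 10876 genes with Benjamini-Hochberg adjustment. DESeq2 1.42.0, limma 3.58.1 (voom), other normalizations and filters, replicate blocks and leaving out each library were alternatives, and leaving out zeros was chosen after seeing the data. CPM were TMM-scaled, and log2 CPM had a prior count of 2. Single values were compared with two-sided exact permutation tests. Libraries of a group differed beyond sampling noise (chi-square per degree of freedom 13.0 to 24.3), which cannot tell cultures from technical repeats. The study's methods count a different liver as a repeat, but the labels do not tie each library to a liver, and if libraries share one, p-values measure spread within it. The code was tested on simulated data. Named genes were the members and, per list, at most 5 genes with an unadjusted p under 0.05 and the 2 most abundant, apart from 1 gene that is not reported here. Genes named because they were at 0 in every library, and others said to be so, were chosen after their values were seen. Members and lists were chosen with earlier results of these data known.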

Additional observations from a re-analysis of the deposited data

Results flagged for a closer look

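Of 16 measures of the VPA group, 3 had a library far from the other 3. Chance marks about 1 group in 20 where values vary freely, but a single library with a count among zeros is always marked. VPA replicate 2 had 3102450 counts on genes, against 1400887 to 1515954 in the other VPA libraries. Nr1h4 was at 17.7 CPM and Nr0b2 at 3.21 CPM in VPA replicate 3, and both genes were listed at 0 in the other VPA libraries. VPA replicate 3 shares slice culture number 71 with CTR replicate 3, where Nr1h4 had 15.9 CPM and Nr0b2 had 6.58 CPM.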

How the results depend on the processing

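The count of members past an adjusted p of 0.05 was 0 in all 17 alternatives, and Ppargc1a was the member with an unadjusted p under 0.05 in each of them, with a log2 fold change of 1.46 to 2.37. Rxra (−0.38 to −0.24), Ppard (0.28 to 0.91) and Nr1h3 (−2.04 to −0.66) kept their sign in every alternative that could be fitted. Over all genes, the count of 1 became 154 with DESeq2, 10 without a filter, 36 among genes with at least 10 counts in every library, 5 with zeros left out, and 0 to 2 when each library was left out. With the replicate block by slice culture number or by replicate number it was 0, and Ppargc1a had log2 fold changes of 2.0 and 1.85 (adjusted p = 0.554 and 0.526 in edgeR). Deviations of same-numbered libraries correlated by 0.0256 to 0.107 for slice cultures and −0.0539 to 0.107 for replicates. The pairs of replicates 2 and 3 are also those of slice cultures 74 and 71, so these ranges share values. They cannot decide whether same-numbered libraries share a liver, and the main fit held condition only. Neither block changed a call on a member. Members without overlap numbered 3 (all genes tested: 4.44% higher and 7.41% lower), 4 without CTR replicate 1 (Ppard), CTR replicate 3 (Nr1h3) or VPA replicate 2 (Ppara), and 7 of 9 with zeros left out, where 16.4% of all genes tested did not overlap.

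Of the 5 tested members with zeros, Nr1h3 kept its sign and the others did not. Ppara was at −1.91 in limma-voom and at −0.81 and −0.55 with the blocks by slice culture and replicate. Nr1i2 was at 0.92 in limma-voom, 1.79 with the slice culture block and −1.03 to 7.47 in the fits that left out a library, the last without CTR replicate 3, its only CTR library with a count, while without VPA replicate 3 or 4 it did not pass the filter. Nr1h4 was at 0.47 with zeros left out. Ahr was at −0.08 in limma-voom, −0.03 without a filter, −1.02 with the replicate block and −0.41 to 0.45 with each library left out. The cause was not tested. The 9 members other than Rxra had 400 counts or fewer over all libraries, and the parts of depth and of the spread between libraries in their precision were not tested.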

Other observations

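Among 26 other nuclear receptors of liver, 16 could be tested, with 10 higher and 6 lower in VPA and a median log2 fold change of 0.13. Rora, a receptor that drives clock genes and lipid metabolism, was at 105, 121 and 116 CPM in CTR replicates 1 to 3 and at 173, 128, 172 and 247 CPM in VPA replicates 1 to 4. The groups did not overlap, and the log2 fold change was 0.65 (95% interval 0.12 to 1.18, unadjusted p = 0.0219, adjusted p = 0.514 in edgeR). Nr2f2, the most abundant of these receptors and a factor of mesenchymal and venous cells, had 213 to 403 CPM in CTR and 168 to 449 CPM in VPA, which overlapped. Vdr and Nr0b1 were listed at 0 in all libraries.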
